A study of Mus musculus with 16 samples.

Results

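H3K9me3 at genes of the solute carriers, the membrane proteins that move sugars, amino acids, peptides, ions, vitamins and drugs across cell and organelle membranes, was compared between WT and Smarcad1-KO crypts of the mouse small intestine. The peaks were picked by gene name and not by their values, though earlier results of these data were known when the group was chosen. Every H3K9me3 peak was taken whose deposited gene name begins with Slc or Slco and a digit, which gave 542 of 212313 peaks, at 129 genes of 35 families. A deposited gene is one that the peak overlaps or that lies within 5000 bp of it. Chromatin came from whole crypt isolates of male C57BL/6 mice, and each mark had 3 WT and 3 KO ChIP libraries. For every mark there was also 1 input of each genotype, chromatin sheared by sonication and sequenced without pull-down, which makes 16 libraries. In the KO, exons of Smarcad1 framed by loxP sites were removed by Cre recombinase driven by the Villin promoter, which is active in the gut epithelium. The labels call the other mice wild type, and neither their Cre status nor the ages of the animals are given in the sources used here. A whole crypt isolate can also hold cells outside the epithelium, in which this Cre is not active. Bulk chromatin cannot tell fewer cells with the mark from less mark per cell. The 3 libraries of a group are named as replicates, and the submitters call those of H3K9me3 biological replicates. Where the libraries of a group do not come from separate animals the p-values cover technical spread only.

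H3K9me3, trimethylation of lysine 9 of histone H3, marks silent chromatin, in particular over repeats and over genes that a cell type does not use. H3K9me2, the dimethylated form, covers broader silent domains. SMARCAD1 is a chromatin remodeler that acts in the upkeep of silent chromatin after DNA replication. Solute carrier genes are used very unevenly. Enterocytes depend on a few of them for uptake of food, while others serve kidney, liver, brain or testis and are silent in the gut.

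The sequence under the peaks is shown first for the 2 lower peaks of smallest p whose centre lies outside annotated UTRs, and for the 1 peak that was higher in KO. Each line gives the 200 bases at the centre of the peak on the plus strand of GRCm38, taken from the RefSeq assembly, with every CG dinucleotide, the site of DNA methylation in mammals, in capitals. The stretches are chr14:121511526-121511725 beside Slc15a1, chr9:119216601-119216800 within an intron of Slc22a14 and chr3:154069926-154070125 within an intron of Slc44a5.

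Slc15a1: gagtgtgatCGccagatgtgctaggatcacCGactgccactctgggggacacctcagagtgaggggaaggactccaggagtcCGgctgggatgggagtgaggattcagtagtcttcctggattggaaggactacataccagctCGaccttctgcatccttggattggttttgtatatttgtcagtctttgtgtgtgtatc
Slc22a14: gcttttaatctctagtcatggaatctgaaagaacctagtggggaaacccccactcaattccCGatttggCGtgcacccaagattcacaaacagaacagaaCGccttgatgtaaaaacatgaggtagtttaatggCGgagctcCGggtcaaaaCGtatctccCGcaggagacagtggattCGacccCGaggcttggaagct
Slc44a5: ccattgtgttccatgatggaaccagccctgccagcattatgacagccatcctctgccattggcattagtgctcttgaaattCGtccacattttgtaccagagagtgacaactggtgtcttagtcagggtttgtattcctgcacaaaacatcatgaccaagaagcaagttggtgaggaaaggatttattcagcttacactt

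The stretches at the lower peaks held 4 and 9 CG dinucleotides and the one at the higher peak held 1. Bases soft-masked as repeats in the assembly made up 20.5% of the Slc15a1 stretch, 89.5% of the Slc22a14 stretch and 46.0% of the Slc44a5 stretch. The whole peaks were more alike. In the same order they held 1.05, 0.974 and 0.571 CG dinucleotides per 100 bp, and 39.3%, 49.9% and 44.9% repeat bases.

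Of 394 genes with Slc and Slco names in GENCODE M21, 129 had a peak (32.7%). The 394 include 5 pseudogenes, of which Slco6b1 and Slc25a5-ps had a peak, and 4 antisense genes, of which 0 had one. Of the 385 that code for protein 127 had a peak (33.0%), beside 6837 of all 21951 protein-coding genes (31.1%), which include them. The difference was not tested. Marked genes were long. Their median length was 55.9 kb, against 21.5 kb for Slc genes without a peak, and the same held for all protein-coding genes (40.9 against 13.1 kb). The peaks themselves were 300 to 11550 bp wide, with a median of 1350 bp, the median of all peaks. They covered 942 kb in all. Within 15 of the 50 families no gene had a peak. The mark was unevenly spread over genes. 71 genes had a single peak, while Slc8a1, the sodium-calcium exchanger NCX1, had 72, and Slc44a5, a choline transporter-like gene, had 44. Slco6b1 and Slco6c1 had 31 each and Slco6d1 had 27, all members of a testis branch of the organic anion transporters on chromosome 1, with Slco6b1 annotated as a pseudogene. Slc35f1, an orphan relative of the nucleotide sugar carriers, had 24.

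By the deposited annotation 488 peaks overlapped their gene and 54 lay beside it. The deposited orientation word describes where the gene lies as seen from the peak. All 20 peaks with the word downstream lay 5′ of their gene, and 31 of 34 with the word upstream lay 3′ of it, the other 3 overlapping the gene in GENCODE M21. For single peaks the side is given here as 5′ or 3′ of the gene. In GENCODE M21, 393 peaks lay within introns, 90 touched an exon, 8 covered the annotated gene start and 51 lay outside the gene. Slc peaks were somewhat richer in GC (median 42.2%, all peaks 39.6%) and in CG dinucleotides (0.696 per 100 bp, all peaks 0.524). Their share of repeat bases was close to that of all peaks (medians 35.1% and 35.2%).

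The depth behind these values was modest. Reads in H3K9me3 peaks, recovered from the deposited values, numbered 7029911 in KO1, the shallowest library, to 11835839 in KO2. The median Slc peak held 21.5 reads in KO1 and 32 to 40 in the other ChIP libraries. No 2 H3K9me3 libraries agreed within sampling noise (chi-square per degree of freedom at least 1.16). Smarcad1 itself was named at 0 H3K9me3 peaks and 0 H3K9me2 regions, so the deletion could not be read from these tables. Among marker genes of the crypt epithelium 2 of 7 had a peak (Lgr5 and Lyz1), and of the markers of other gut wall cells 1 of 4 (Pecam1). Of the 4 peaks at Lgr5 and Lyz1, 2 were lower in KO, 1 at each gene (median over the 4 of −0.39), and the 1 peak of Pecam1, an endothelial gene, was lower by −0.71. Of all peaks with a gene 3.92% were lower, and of all peaks 2.46%. A histone mark gives no count of cells, and the part of other cells in the results was not tested.

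H3K9me3 was lower in KO at 52 Slc peaks and higher at 1 (limma, Benjamini-Hochberg adjusted p under 0.05 over all 212313 peaks). That is 9.59% of the Slc peaks lower, against 2.46% of all peaks and 3.92% of all peaks with a gene. The 1 higher peak stands beside a background of 0.252% of all peaks. The 52 lower peaks belonged to 39 genes of 22 families. All 3 KO values lay below all 3 WT values at 108 Slc peaks (19.9%, all peaks 8.21%, peaks with a gene 10.8%). They lay above all WT values at 38 (7.01%, all peaks 7.30%, peaks with a gene 7.22%). The median change over all 542 peaks was small, −0.07 on the log2 scale. It was 0.03 over all peaks and 0.01 over all peaks with a gene. The quartiles of the Slc peaks were −0.36 and 0.14, and the extremes were −1.76 and 0.98. The deposited values have matched distributions in the 6 libraries, so each change is relative to all peaks, and a shift common to all peaks would not show.

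The count differed between tests. An edgeR quasi-likelihood test on the recovered reads called 54 Slc peaks lower (9.96%, against 2.76% of all peaks tested), among them all 52. DESeq2 called 28 (5.17%, against 1.07%), all among the 52. limma without a trend of the spread on the mean called 0 lower, and in that fit the calls over all peaks fell to 87 lower (0.0410%).

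The families with most peaks were set beside the others. The 3 families with the most peaks, Slco, Slc8 and Slc44, held 247 peaks and none of the lower ones, and their median change was 0.08. The other 32 families held 295 peaks, all 52 lower ones (17.6%) and a median of −0.28. This division was made after the values were seen and rests on a few genes with many peaks. Slc8a1, Slc44a5 and the 3 Slco6 genes held 205 of the 247 peaks, and of the 15 genes with a peak in these families 9 had a negative median. The medians of both groups kept their signs in every alternative fit.

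**Figure D1:**
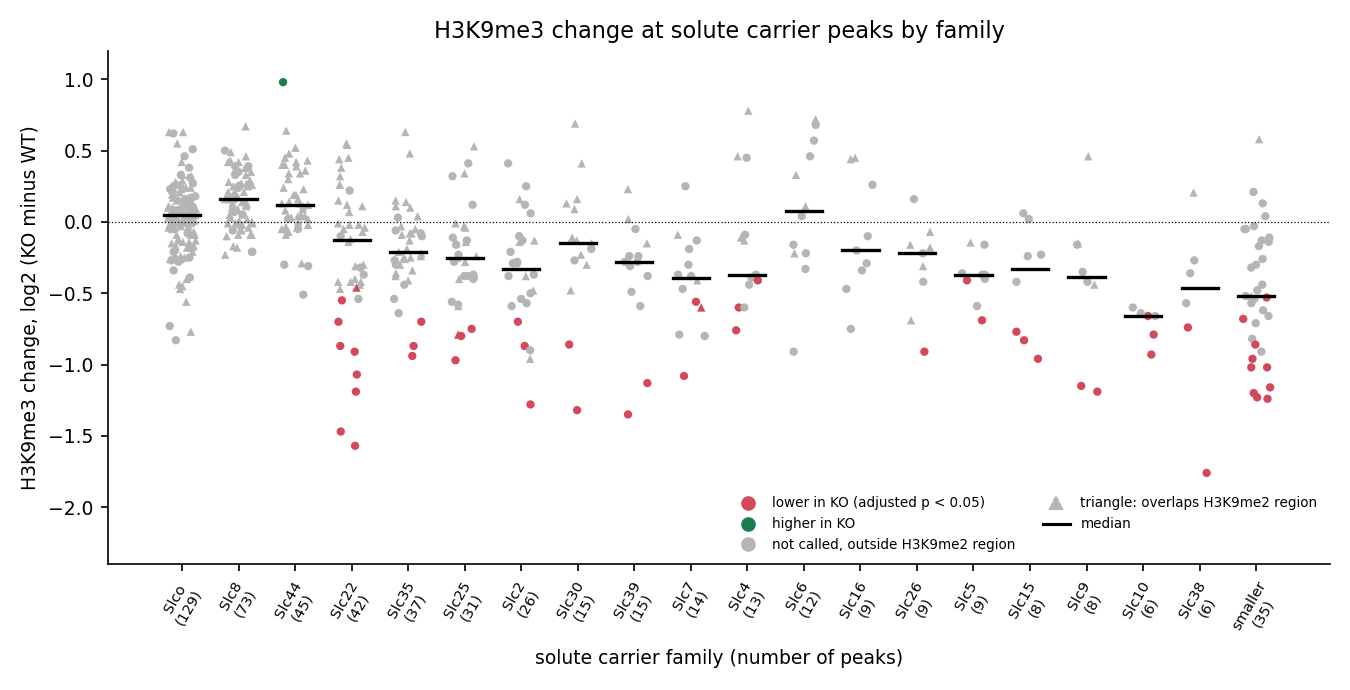
H3K9me3 change at each of the 542 Slc peaks on the log2 scale (y axis, KO minus WT) by family (x axis, families with at least 5 peaks and the rest as smaller, points spread sideways at random), with red for lower, green for higher and triangles for peaks that overlap an H3K9me2 region. Slco, Slc8 and Slc44 centre at 0.05, 0.16 and 0.12 with no red point, while 15 of the 19 named families have a negative median.

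Among the organic anion transporters (Slco, 129 peaks at 11 of 15 genes) the median change was 0.05. A negative change was found at 50 peaks (38.8%), against 45.3% of all peaks and 58.1% of Slc peaks. The sodium-calcium exchangers (Slc8, 73 peaks) had a median of 0.16 and the choline transporter-like genes (Slc44, 45 peaks) of 0.12, each set by 1 gene, Slc8a1 with 72 peaks and Slc44a5 with 44. The single peaks of Slc8a3 and Slc44a3 had values of −0.17 and −0.51, and 7 of the 11 Slco genes had a negative median. The organic ion carriers of family Slc22, some of which serve kidney and liver excretion, had 42 peaks at 9 of 26 genes, and 9 peaks at 4 genes were lower (21.4%, against 2.46% of all peaks and 3.92% of all peaks with a gene). Of these 9, 6 were at Slc22a14 and Slc22a16, which are known from sperm and testis. The facilitative sugar carriers (Slc2) had 26 peaks, of which 3 were lower, with a median of −0.33. At 13 of the 26 (50.0%) all KO values lay below all WT values, against 19.9% of Slc peaks and 8.21% of all peaks. The nucleotide sugar carriers and their relatives (Slc35) had 3 lower of 37, the mitochondrial carriers (Slc25) 4 of 31, and both zinc families 2 of 15 each (Slc30 and Slc39). Smaller families, named here after their counts were seen, were Slc28, the concentrative nucleoside carriers (3 of 3 lower, at Slc28a1 and Slc28a3), Slc10, the bile acid carriers and relatives (3 of 6, all at Slc10a7), and Slc15, the peptide carriers (3 of 8). Slc6, the family of neurotransmitter and amino acid carriers, had 0 lower of 12 and a median of 0.07, with 5 negative changes.

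The peak with the smallest p lay 4047 bp 5′ of Slc15a1 (PEPT1), the brush border carrier that takes up di- and tripeptides from food, at chr14:121509301-121513950. In GENCODE M21 this stretch lies in a long noncoding RNA gene, Gm49035. Its H3K9me3 values were 7.68, 7.43 and 7.70 in the WT libraries and 6.59, 6.72 and 6.62 in the KO libraries, in log2 reads. All KO libraries lay well below all WT libraries, and the change was −0.96 ± 0.11 (SE, limma adjusted p = 4.44e-08). Recovered reads, before any scaling for depth, were 232, 166 and 238 in WT and 67, 124 and 99 in KO. A further peak of Slc15a1, 4471 bp 3′ of the gene, had a change of −0.83 (limma adjusted p = 0.0189).

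Slc22a14, an organic ion carrier relative known from sperm, carried the most lower peaks of any Slc gene, 4 of its 5. Its strongest peak, at chr9:119214751-119218650 in an intron, had values of 7.51, 7.48 and 7.46 in WT and 6.35, 6.70 and 6.67 in KO (change −0.91 ± 0.12, SE). The WT libraries were nearly identical there and KO1 was the lowest. The other 4 peaks of the gene changed by between −1.19 and −0.54. Slc22a2 (OCT2), the organic cation carrier of the kidney, had 2 lower peaks of 3. The one at chr17:12596251-12598200 in an intron had 6.14, 5.80 and 6.57 in WT and 4.28, 4.91 and 4.92 in KO, a change of −1.47 ± 0.20 (SE). In Slc22a16, a carnitine carrier of the testis, the peak over the end of the gene had 6.36, 6.14 and 6.18 in WT and 5.15, 5.17 and 5.14 in KO. That change was −1.07 ± 0.17 (SE), and the KO libraries differed among themselves by only hundredths.

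The largest fall at any Slc peak was at Slc38a1 (SNAT1), a glutamine carrier, at chr15:96582601-96584100. Values there were 5.85, 5.22 and 5.55 in WT and 3.47, 4.10 and 3.77 in KO, a change of −1.76 ± 0.25 (SE, limma adjusted p = 2.51e-06). The groups did not overlap, but the reads were few, 8, 20 and 13 in KO. At the nucleoside carriers of Slc28 and Slc29, joined here after their counts were seen, 4 of 7 peaks were lower. The background was 2.46% of all peaks and 3.92% of all peaks with a gene. Slc29a3 (ENT3), a lysosomal nucleoside carrier, had 7.04, 6.46 and 6.74 in WT and 5.68, 5.75 and 5.21 in KO over its last exon (change −1.20 ± 0.16, SE). Slc28a3 (CNT3), which takes up nucleosides with sodium, had 5.87, 5.86 and 5.95 in WT and 4.66, 4.78 and 4.77 in KO (−1.16 ± 0.19, SE). Both peaks of Slc28a1 (CNT1) were also lower, with changes of −0.86 and −0.53. At all 4 of these peaks the KO values lay below the lowest WT value, as at 98.4% of all lower peaks.

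Slc25a54, a mitochondrial carrier gene, held 1 of only 3 lower peaks inside an H3K9me2 region. Its values were 7.27, 7.63 and 7.35 in WT and 6.48, 6.73 and 6.66 in KO (−0.79 ± 0.12, SE). At Slc18a2 (VMAT2), which loads monoamines into vesicles, they were 5.83, 5.98 and 5.75 in WT and 4.28, 4.73 and 4.82 in KO (−1.24 ± 0.20, SE). At Slc2a9, a urate carrier, they were 6.16, 5.44 and 5.72 in WT and 4.18, 4.54 and 4.77 in KO (−1.28 ± 0.22, SE). limma adjusted p-values of the 10 lower peaks named so far with all values ran from 4.44e-08 to 6.23e-05.

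The remaining lower peaks were spread over many roles, and they are given by their log2 change alone. Among carriers of metals and ions they were at the zinc carriers Slc30a9 (−1.32), Slc30a7 (−0.86) and Slc39a11 (−1.35 and −1.13), the phosphate carrier Slc20a2 (−1.23), the sodium-proton exchanger relative Slc9b1 (−1.19) and the anion carrier Slc26a11 (−0.91). The bicarbonate carriers Slc4a8 (−0.76 and −0.60) and Slc4a7 (−0.41) and the cation-chloride carrier relative Slc12a8 (−0.68) were smaller in size. Carriers of sugars and their relatives were Slc2a10 (−0.87), Slc2a13 (−0.70), Slc5a4b (−0.69 and −0.41), Slc35f2 (−0.94), Slc35f5 (−0.87) and Slc35f3 (−0.70). In the mitochondrial family they were Slc25a17 (−0.97), Slc25a46 (−0.80) and Slc25a26 (−0.75). The fatty acid carrier Slc27a2 (−0.96), the lysosomal carrier Slc46a3 (−1.02), the peptide carrier relative Slc15a5 (−0.77) and 3 peaks of Slc10a7 (−0.93, −0.79 and −0.66) belonged to the same set. At 49 of the 52 lower peaks (94.2%) all KO values lay below all WT values, as at 98.4% of all lower peaks, the exceptions being peaks of Slc2a10, Slc22a16 and Slc5a4b. By place 33 lay in introns, 10 over exons, 9 outside the gene and 0 over a gene start.

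**Figure D2:**
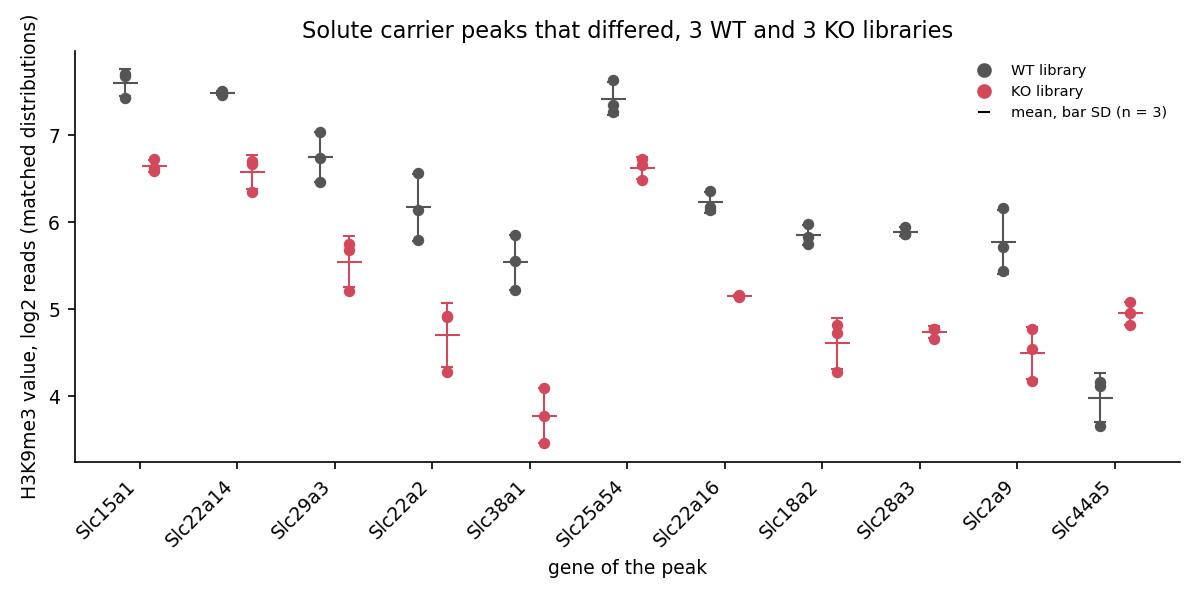
H3K9me3 values in log2 reads with matched distributions (y axis) in each of 3 WT (grey) and 3 KO (red) libraries, with the mean and SD, for the 10 lower Slc peaks of smallest p and the 1 higher peak (x axis, by gene). In the first 10 all KO points lie below all WT points, and at Slc44a5 the KO points, 4.82 to 5.08, lie above the WT points, 3.66 to 4.17.

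The 1 higher peak, chr3:154069501-154070550 in an intron of Slc44a5, had values of 4.17, 3.66 and 4.12 in WT and 5.08, 4.82 and 4.96 in KO. This change of 0.98 ± 0.26 (SE, limma adjusted p = 0.0241) rested on 12 to 20 reads in WT and 24 to 33 in KO. It was no longer called by DESeq2 (adjusted p = 0.284) or without WT2 or any one of the KO libraries (limma adjusted p from 0.0535 to 0.143).

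Long genes differed in how their peaks moved together. For comparison, 45.3% of all peaks and 58.1% of Slc peaks had a negative change, and 2.46% and 9.59% were lower. In Slc8a1 the 72 peaks covered 166 kb of 365 kb, and 17 had a negative change, with a median of 0.16 and a range from −0.23 to 0.67. In Slc44a5 12 of 44 changes were negative, in Slco6c1 6 of 31 and in Slco6d1 7 of 27. In Slco6b1 12 of 31 were negative and the median was 0.05. Slc35f1, with 24 peaks, had 17 negative changes and a median of −0.11, but none was called. The Slco6 genes and the Slc22 genes on chromosome 19 have related copies beside them, and how far the filter on mapping quality affected their reads was not tested. By contrast all 12 peaks of Slc39a11, a zinc carrier gene of 405 kb, changed downwards in value, 2 of them past the test, and all 5 peaks of Slc10a7, a relative of the bile acid carriers, had a negative change with 3 lower. All 6 peaks of Slc5a4b, a relative of the sodium-glucose carriers, were negative with 2 lower. Slc6a15, a neutral amino acid carrier of the brain, went the other way in value, with 1 negative change of 8 and a median of 0.40, and none called.

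**Figure D3:**
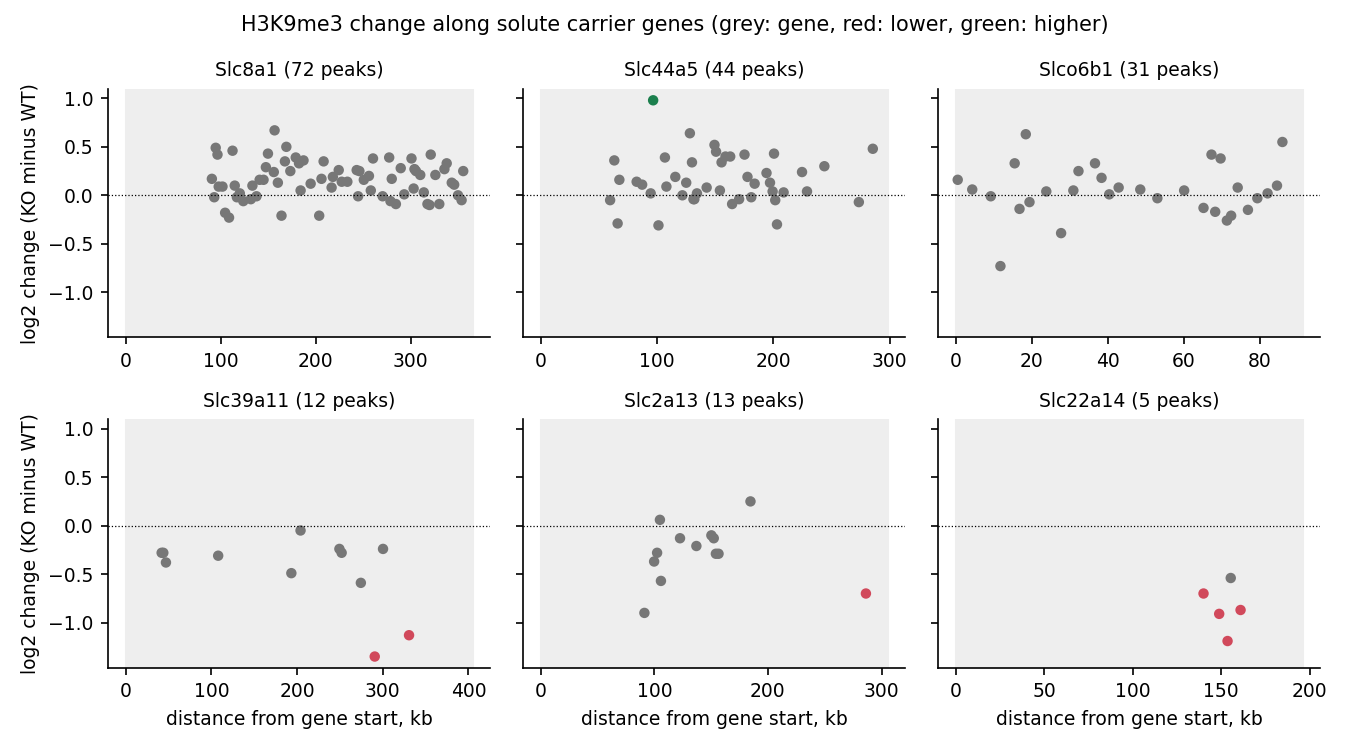
H3K9me3 change on the log2 scale (y axis, KO minus WT) against the distance of each peak from the gene start in kb (x axis) for 6 long or multi-peak Slc genes, with the gene in grey, lower peaks in red and the higher peak in green. The points of Slc8a1 scatter about a median of 0.16 along the gene, while those of Slc39a11 and Slc22a14 all lie below 0.

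Lower peaks were found within and on both sides of the genes. Of 488 overlapping peaks 43 were lower (8.81%), where the background for peaks overlapping any gene was 3.54%. Of the 34 peaks with the deposited word upstream, 31 of them 3′ of the gene, 5 were lower (14.7%, background for that word 5.39%), with a median of −0.32. Of 20 peaks 5′ of the gene 4 were lower (20.0%, background 5.43%), with a median of −0.20. These 4 were at Slc15a1, Slc35f2 (−0.94), Slc7a10 (−0.56) and Slc7a13 (−0.60). None of the 8 peaks that covered a gene start passed the test. The nearest was Slc7a15, an amino acid carrier relative, with −0.38 (limma adjusted p = 0.0522), which is also the first Slc peak outside the threshold. The last inside it was a peak of Slc4a7 with −0.41 (adjusted p = 0.0423). At Slc38a4, an imprinted amino acid carrier, a peak of 5850 bp covered the start, with 7.32, 7.21 and 7.19 in WT and 7.39, 7.61 and 7.36 in KO. All KO values lay above all WT values there, but the change of 0.21 did not pass the test (limma adjusted p = 0.469).

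The lower Slc peaks were nearly all outside the H3K9me2 regions called in the H3K9me2 libraries. H3K9me2 regions overlapped 308 Slc peaks (56.8%, all peaks 68.2%). Among the 234 Slc peaks outside these regions 49 were lower (20.9%), where the background for all peaks outside was 6.61%. Among the 308 inside 3 were lower (0.974%), against a background of 0.530%. The median change was −0.31 outside and 0.04 inside, against −0.04 and 0.05 for all peaks. The 3 largest families had 196 of their 247 peaks inside such regions, and the other families 112 of 295. The median width was 1800 bp for lower peaks and 1350 bp for the other Slc peaks, with 0.898 against 0.667 CG dinucleotides per 100 bp and 42.2% against 34.4% repeat bases. Lower peaks of the whole set had 1950 bp, 0.741 CG dinucleotides per 100 bp and 48.9% repeat bases. For all peaks these medians were 1350 bp, 0.524 and 35.2%. A wider peak holds more reads, and the part of depth in these differences was not tested.

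Over the inputs the solute carrier peaks stood apart by place. ChIP over input is given as the log2 ratio of the shares of reads, each library scaled to its own reads in all peaks, so 0 means the same share as in the input and not absence of the mark. The median over Slc peaks was 0.08, −0.02 and 0.02 in WT1, WT2 and WT3 (mean 0.03 ± 0.05, SD, n = 3) and −0.11, −0.12 and −0.14 in the KO libraries (−0.13 ± 0.02). For all peaks the means were −0.06 ± 0.02 in WT and −0.02 ± 0.03 in KO. Outside H3K9me2 regions Slc peaks fell from 0.24 ± 0.05 in WT to −0.17 ± 0.05 in KO, and all WT libraries lay above all KO libraries. Inside these regions the values were −0.09 ± 0.05 and −0.10 ± 0.05, which overlap. The same means over all peaks were 0.06 ± 0.01 in WT and 0.02 ± 0.02 in KO outside H3K9me2 regions, and −0.11 ± 0.01 and −0.03 ± 0.03 inside them. With 1 input per genotype there is no test against input. The 3 libraries of a genotype share that input, so the SDs and the gap between genotypes carry no measure of input noise. Input reads at Slc peaks were themselves a little higher in KO. The median log2 ratio was 0.09, with 0.09 also for Slc peaks outside H3K9me2 regions, 0.17 for lower Slc peaks and 0.00 for all peaks. With both inputs summed the KO median over all Slc peaks was −0.08 in place of −0.13. The limma test does not use the inputs.

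**Figure D4:**
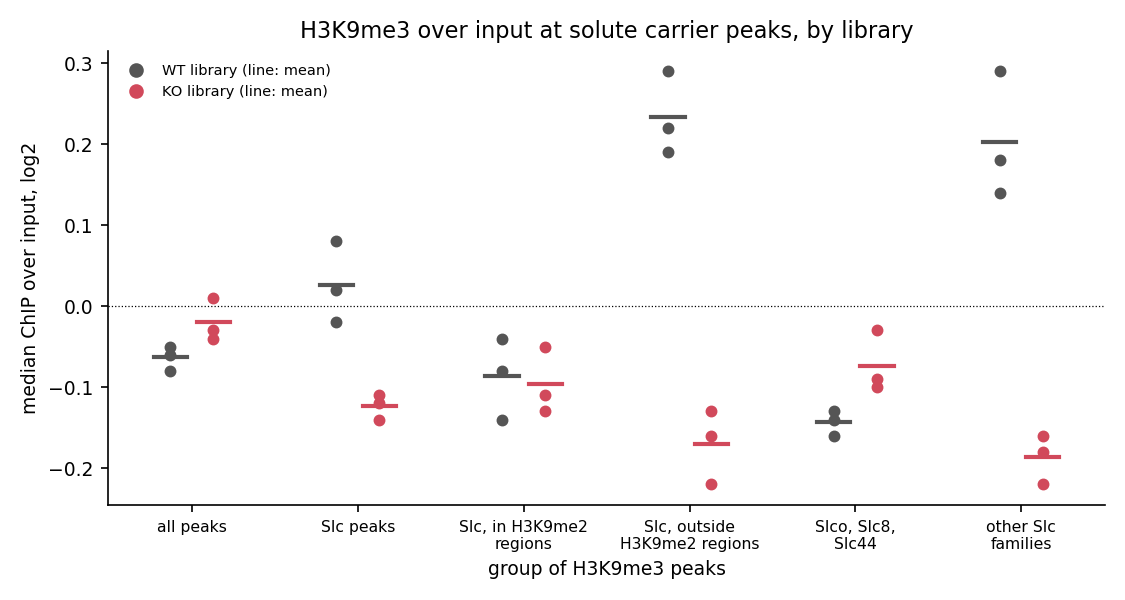
Median log2 ratio of ChIP over input (y axis) in each of 3 WT (grey) and 3 KO (red) libraries, with lines at the means, for groups of H3K9me3 peaks (x axis). Slc peaks outside H3K9me2 regions have WT values of 0.19 to 0.29 and KO values of −0.22 to −0.13, while inside these regions the libraries of both genotypes overlap.

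The change was also set against the ratio to input in WT. Slc peaks were split into 3 bins of 180 or 181 by their ratio in WT1 alone, and the change was then taken from the other libraries, KO minus WT2 and WT3. The median change was 0.04 in the lowest bin, −0.01 in the middle bin and −0.27 in the highest bin. All peaks between the same bounds had 0.04, 0.03 and −0.07. In the highest bin 34.8% of the Slc peaks overlapped an H3K9me2 region, and in the lowest bin 72.9%.

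The 6 genes with the highest peaks over the WT input, among Slc peaks with at least 20 reads in each input, were Slc22a30, Slc2a12, Slc7a10, Slc28a1, Slc39a11 and Slc25a54. Their ratios in WT were 0.95 to 1.28. Slc22a30, of the chromosome 19 group of organic anion carriers, had 7.13, 7.21 and 7.23 in WT and 6.74, 6.83 and 6.63 in KO (change −0.46, limma adjusted p = 0.0149). Slc7a10, a carrier of small neutral amino acids, had 7.35, 7.09 and 7.07 in WT and 6.35, 6.90 and 6.57 in KO (−0.56, limma adjusted p = 0.00474). The Slc28a1 peak 3′ of the gene had 7.03, 6.98 and 7.06 in WT and 6.41, 6.74 and 6.33 in KO (−0.53, limma adjusted p = 0.00764). The peaks of Slc2a12, a sugar carrier, and of Slc39a11 did not pass the test (0.12 and −0.31). The calls at Slc22a30, Slc7a10 and Slc28a1 were lost with DESeq2 (adjusted p of 0.169, 0.113 and 0.143) and each without some single library (limma adjusted p from 0.0573 to 0.102). Being high over the WT input was the reason these 6 were named.

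Carriers known for work in the intestinal epithelium were taken as a list. Of 36 genes 7 had a peak, with 10 peaks in all, where 32.7% of all Slc genes had one. None of the 4 sugar carriers (Slc5a1, Slc2a2, Slc2a5, Slc2a1) and none of the 3 bile acid carriers had one. Of 10 genes for peptides and amino acids Slc15a1 and Slc7a8 had 3 peaks, and all 3 were lower. Slc7a8 (LAT2), the basolateral exporter of neutral amino acids, had 5.55, 5.51 and 5.82 in WT and 4.74, 4.78 and 4.13 in KO (−1.08 ± 0.22, SE). Of 8 ion carriers Slc9a2 (NHE2), a sodium-proton exchanger, had 5.14, 4.91 and 5.17 in WT and 3.79, 3.78 and 4.20 in KO (−1.15 ± 0.26, SE, limma adjusted p = 0.00381, DESeq2 adjusted p = 0.0672). Slc4a4, the bicarbonate carrier, had 3 peaks with −0.37, −0.09 and 0.45, none past the test. Among 7 metal and vitamin carriers the thiamine carrier Slc19a3 (−0.62) and the folate carrier Slc46a1 (−0.11) had 1 peak each, and of 4 carriers of nucleosides and short-chain acids Slc5a8 had 1 (−0.36), none past the test. Of all 10 peaks 4 were lower, at 3 genes, and the median was −0.50. Beside these small counts stand 2.46% lower of all peaks and 9.59% of Slc peaks.

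Carriers known for neurotransmitter transport were set beside them. Of 17 such genes 7 had a peak, with 8 peaks, all with a negative change and a median of −0.63. A negative change was found at 45.3% of all peaks, 58.1% of Slc peaks and 77.8% of Slc peaks outside H3K9me2 regions. Past the test were Slc18a2 and Slc17a8 (VGLUT3, −1.02, limma adjusted p = 0.00495). All genes of Slc22 and Slco, families that hold drug carriers of liver and kidney but also testis genes, made a list of 41. It had 171 peaks at 20 genes, 89 of them at the Slco6 genes of the testis branch. Of these peaks 9 were lower (5.26%), all in Slc22 and 6 of them at Slc22a14 and Slc22a16, and the median was 0.01. That share lies below the 9.59% of all Slc peaks and near the 3.92% of all peaks with a gene, and for the neurotransmitter carriers too the background is 2.46% of all peaks.

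H3K9me2 was looked up for the same genes. The H3K9me2 table groups neighbouring peaks into regions, and 271 of 47065 regions name an Slc gene. They belong to 78 genes, 51 of which also had an H3K9me3 peak. Of the 39 genes with a lower H3K9me3 peak, 6 were in the H3K9me2 table (15.4%), and of the other 90 marked genes 45 were (50.0%). edgeR called 0 Slc regions lower and 0 higher, against 0.00212% of all regions lower and 0% higher. At an unadjusted p under 0.05, 6 were lower and 5 higher (4.06% of Slc regions), and of all regions 717 were lower and 753 higher (3.12%). DESeq2 also called 0. The median log2 change of the Slc regions was −0.005 and that of all regions −0.002, and the quartiles of the Slc regions were −0.08 and 0.06. H3K9me2 libraries differed among themselves, WT1 and KO3 most of all (chi-square per degree of freedom 5.92, lowest pair 1.36), and leaving out either one gave 0 calls too.

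The 3 Slc regions of smallest p were at Slc22a29 (chr19:8138401-8160600, log2 change −0.23), Slco6b1 (chr1:96974551-96981000, 0.42) and again Slc22a29 (chr19:8172451-8194200, −0.19). The edgeR adjusted p was 1.000 for each. Reads in the Slco6b1 region were 169, 155 and 109 in WT and 261, 143 and 392 in KO before scaling. The groups overlapped there, and KO3 was the highest. The 17 Slc regions of genes with a lower H3K9me3 peak had a median change of −0.017. Slc2a13, a myo-inositol carrier with 7 such regions, had changes from −0.33 to 0.11. At Slc25a54 both regions had positive changes, 0.07 and 0.22, where its H3K9me3 peak was lower. For Slc15a1, Slc22a14, Slc22a2, Slc29a3 and Slc38a1 no H3K9me2 region is named.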

How the data were processed

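Whole crypt isolates were fixed, and chromatin was immunoprecipitated for H3K9me2 or H3K9me3 and sequenced as paired-end reads. According to the methods and the processing notes of the submitters, reads were trimmed (Trim Galore 0.4.4), mapped to GRCm38 (Bowtie2 2.3.2) and filtered on mapping quality, and peaks were called with MACS on the ChIP libraries of a mark pooled, so a peak need not be present in each library. For H3K9me3 the authors deposited log2 read counts per peak with distributions matched across the 6 ChIP libraries and unmatched log2 counts in the inputs. For H3K9me2 the authors deposited a signal, the mean reads per peak of each region, in 47065 regions. The mean times the number of peaks lay within 0.00114 of a whole number, and these sums were tested. A shorter H3K9me2 table, deposited as counts of the peaks past the authors' edgeR test with its adjusted p-values, served only to check the sums (24 of 24 were held by their region). The like table for H3K9me3 was not used, nor were 8 columns of standard deviations.

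H3K9me3 was tested with limma 3.58.1 (lmFit, eBayes with trend) on the log2 values of all 212313 peaks, and H3K9me2 with edgeR 4.0.16 (TMM, filterByExpr, quasi-likelihood F test) on all regions. Genotype was the only term, tests were two-sided, and the threshold was a Benjamini-Hochberg adjusted p under 0.05. H3K9me3 reads were recovered from the ranks of the deposited values, which returned 99.6% of peaks within 0.002 on the log2 scale in each ChIP library. These reads served for depth, ratios to input (1 read added) and the alternative count tests, with DESeq2 1.42.0 among them. Functions were tested on simulated data. Features of the sequence came from the RefSeq GRCm38 assembly and GENCODE M21, read with pysam 0.24.0 in Python 3.11.15 (R 4.3.3 for the tests). All 542 gene IDs were found in GENCODE M21, and 539 peaks had the same overlap with the gene there.

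Named peaks were the 10 lower and 10 higher of smallest p with no overlap of the groups, 1 per gene (1 higher existed), the 6 genes with the most peaks, the 6 highest over the WT input, the peak of smallest p at each intestinal gene, the 3 H3K9me2 regions of smallest p, and families of at least 15 peaks. Other genes were named after their values were seen. The solute carrier peaks and the gene lists were chosen with earlier results of these data known. Replicate numbers did not pair the samples. The sequence under a further lower peak is not reported here.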

Additional observations from a re-analysis of the deposited data

How the results depend on the processing

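The 52 lower Slc peaks became 54 with edgeR on recovered reads, 53 with a filter on low values, 53 with the replicate number as a block (replicate block) and 36 at an adjusted p under 0.01. They became 28 with DESeq2, 0 with limma without a trend and 18 with a log2 change of at least 1 in size, and 35 to 49 when 1 library was left out. The 1 higher peak became 0 with limma without a trend, with DESeq2 and under both stricter thresholds, and 0 to 1 when 1 library was left out. It lies in Slc44, so without the Slco, Slc8 and Slc44 families, an alternative chosen after seeing the data, it became 0 and the median log2 change of −0.067 became −0.285. Otherwise that median ran from −0.104 to −0.046. The cause was not tested, apart from the stricter thresholds and the smaller set of peaks. Counts of Slc H3K9me2 regions were 0 under every alternative, block included, and their median of −0.005 ran from −0.015 to 0.010 when 1 library was left out (0.010 without WT1) and was −0.007 with the block. The median ratio to input in KO was −0.08 with both inputs summed, against −0.13. Of 22 named peaks, 16 were past the threshold. All 16 lost the call with limma without a trend, 5 with DESeq2 (Slc44a5, Slc22a30, Slc7a10, Slc28a1 and Slc9a2) and 1 to 3 for each library left out. A single one changed sign, Slc2a12, with −0.01 without WT2 (up to 0.22 without another library). Same-numbered libraries did not deviate together for H3K9me3 (correlations of −0.01 to 0.01), and for H3K9me2 the correlations were 0.01 to 0.18, so the numbers were taken as names only. KO1 held a median of 21.5 reads per Slc peak, and the part of depth in the calls at smaller peaks was not tested.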
